A study of Mus musculus with 14 samples.

Results

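The genes described here are Phf1, E130012A19Rik (named Epop in the GENCODE M21 annotation), Pcgf2 and Kdm6b, which encode Polycomb subunits and an enzyme that removes the Polycomb mark. They were chosen by gene symbol, and all 4 were found among the 3533 genes of the deposited comparison of EZH2 loss-of-function (LOF) with EZH2 wild-type (WT) brainstem gliomas. RNA-seq of 14 mouse tumors made up the series, and 7 of them enter here: 4 EZH2 LOF tumors (the NEL_CRE group, replicates 13 to 16) and 3 EZH2 WT tumors (the N_CRE group, replicates 1 to 3). EZH2 LOF tumors arose in Nestin-Tv-a; p53f/f; Ezh2f/f mice, and EZH2 WT tumors in Nestin-Tv-a; p53f/f; Ezh2wt mice. In both groups the tumors were started by RCAS viruses carrying PDGFB and Cre, so p53 loss and PDGFB were shared and the floxed Ezh2 alleles set the groups apart. RCAS viruses enter only cells that make the Tv-a receptor, here under the Nestin promoter, which is active in neural progenitors. The study describes deletion of the floxed Ezh2 exons as incomplete, and Ezh2 itself was not analysed here. None of the 4 genes is among the 294 genes listed for the second comparison of the series, an EZH2 gain-of-function mutant, and no test was made in those tumors.

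Polycomb proteins keep developmental genes silent through a pair of complexes. Polycomb repressive complex 2 (PRC2), with EZH2 as its catalytic subunit, methylates histone H3 on lysine 27 (H3K27me3), and accessory subunits such as PHF1 and EPOP join it. Polycomb repressive complex 1 (PRC1), whose canonical forms bind H3K27me3 and contain PCGF2 or its relative BMI1, ubiquitinates histone H2A and compacts chromatin. KDM6B, also called JMJD3, is a JmjC demethylase that takes the methyl groups off H3K27. H3K27 methylation is a central theme in diffuse midline gliomas, in many of which a lysine 27 mutation of histone H3 inhibits PRC2.

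All 4 genes were higher in EZH2 LOF tumors, with fold changes of mean normalized counts (reads of a gene divided by the size factor of the library) between 2.35 and 3.67. Each passed an adjusted p of 0.05 by limma with Benjamini-Hochberg adjustment over 13391 genes, a call that 31.2% of the 3533 genes in the table also met in this direction, and 8.23% of all genes tested. In each of the 4 the lowest EZH2 LOF library lay above the highest EZH2 WT library, as it did for 41.9% of the genes in the table, while 44.6% lay below without overlap. The table holds only genes that the authors had already called changed on these libraries, so that the presence of a member in it is not independent of its difference. Every EZH2 LOF library was shallower than every EZH2 WT library, with 281847 to 1842891 reads in the listed genes against 2763245 to 3685186, and depth and genotype cannot be told apart. In bulk tumor RNA, fewer cells of a type and less RNA per cell cannot be told apart either.

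**Figure D1:**
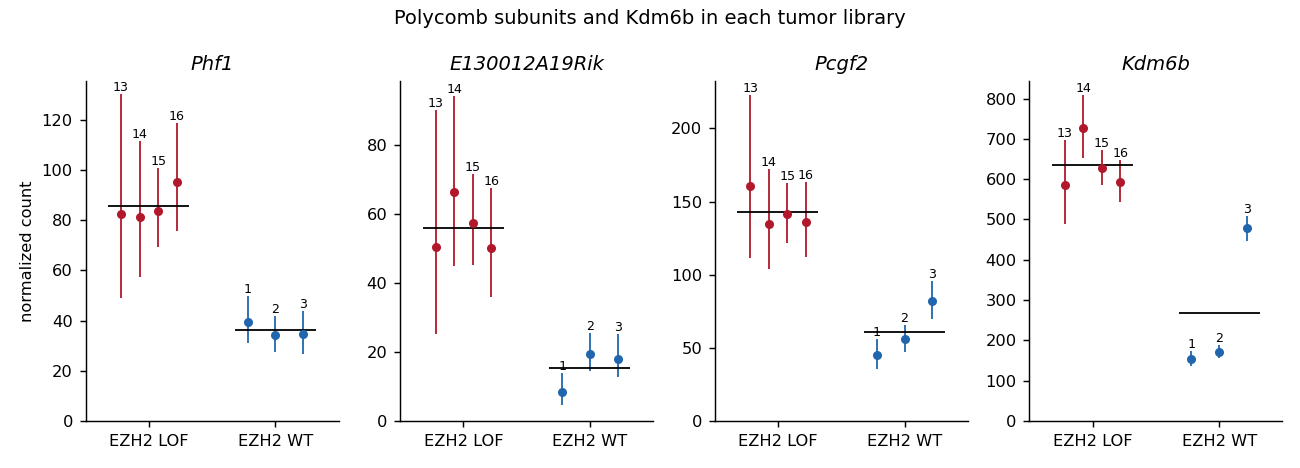
Normalized counts of the 4 genes (vertical axes, each starting at 0) in 4 EZH2 LOF and 3 EZH2 WT tumor libraries, numbered by replicate. Vertical bars are exact 95% Poisson intervals, which cover counting error only, and horizontal lines are group means. No EZH2 LOF point lies below an EZH2 WT point, and replicate 3 of EZH2 WT, at 478 for Kdm6b, lies apart from the other two.

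The 300-base promoter windows of Phf1 and Pcgf2 are shown so that the sequence at the start of these members can be read beside their GC content. They run from 250 bases before to 50 bases after the RefSeq start, in build GRCm38.p6, at chr17:26932877-26933176 on the plus strand for Phf1 and chr11:97699599-97699898 on the minus strand for Pcgf2. The RefSeq starts differ from those of the GENCODE spans given below, and the Pcgf2 window lies wholly inside its GENCODE span. Positions below are relative to the RefSeq start. Capitals mark matches to GGGCGG, the core of the Sp1 GC box, and to CACGTG, the E-box.
Phf1: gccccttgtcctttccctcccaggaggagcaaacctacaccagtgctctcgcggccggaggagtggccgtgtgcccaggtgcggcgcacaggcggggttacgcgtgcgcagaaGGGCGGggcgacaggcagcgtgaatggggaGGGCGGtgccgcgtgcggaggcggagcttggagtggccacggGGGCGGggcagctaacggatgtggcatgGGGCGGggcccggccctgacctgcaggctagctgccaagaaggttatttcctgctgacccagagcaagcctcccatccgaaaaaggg
Pcgf2: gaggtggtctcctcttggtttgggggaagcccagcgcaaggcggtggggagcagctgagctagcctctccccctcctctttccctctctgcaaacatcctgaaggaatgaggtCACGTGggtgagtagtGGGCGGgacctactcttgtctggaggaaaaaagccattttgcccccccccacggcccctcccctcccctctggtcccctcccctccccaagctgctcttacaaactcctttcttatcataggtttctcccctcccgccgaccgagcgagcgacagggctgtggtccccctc
The Phf1 window held 4 GGGCGG matches, with first bases at -137, -107, -65 and -37 from the start, and 24 CpG dinucleotides, more than in 80.02% of 32851 mouse promoters. The Pcgf2 window held 1 GGGCGG at -121 and 1 CACGTG at -137, with 10 CpG, against a median of 7 over all promoters. GGGCGG on either strand was found in 35.7% of all promoters and CACGTG, which reads the same on both strands, in 7.15%. The other 4 words searched on both strands, TTTCCCGC (1.07% of promoters), TTTGGCGC (0.514%), GCATGCGC (2.71%) and TTCNNNGAA (8.3%), were in neither window. A match is a description of the sequence and no evidence of binding.

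Phf1 (ENSMUSG00000024193) is a protein-coding gene at chr17:26933052-26937908 on the plus strand of mm10, with 11 merged exons. Its product is a Polycomb-like protein, which reads methylated H3K36 through a Tudor domain and joins PRC2. Phf1 had 82.5, 81.4, 83.9 and 95.4 normalized counts in EZH2 LOF replicates 13 to 16, against 39.5, 34.1 and 34.7 in EZH2 WT replicates 1 to 3. The groups did not overlap, and the lowest EZH2 LOF library was 2.06 times the highest EZH2 WT library. Means were 85.8 ± 6.50 (SD, n = 4) and 36.1 ± 2.97 (SD, n = 3), and the log2 fold change was 1.23 (SE 0.19, limma adjusted p = 0.00583). Of the 4 genes it had the tightest libraries in the EZH2 WT group, where the coefficient of variation was 8.24%, against 31.0% to 67.9% for the others. Its counts were small: 250 reads over the EZH2 LOF libraries and 228 over the EZH2 WT libraries, with 18 reads in replicate 13, whose 95% interval ran from 48.9 to 130.4 normalized counts. Of its exon bases 39.3% lie under exons of Cuta on the opposite strand. The sources used here do not give the strand setting of the counting, and reads of the 2 genes may not have been told apart.

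E130012A19Rik (ENSMUSG00000043439) is a single-exon gene of 2.314 kb at chr11:97627389-97629702 on the minus strand. EPOP, its product, links PRC2 to the Elongin BC complex. It had 50.4, 66.4, 57.4 and 50.1 normalized counts in EZH2 LOF replicates 13 to 16, against 8.35, 19.3 and 18.1 in EZH2 WT replicates 1 to 3. The groups were wide apart, the lowest EZH2 LOF library being 2.59 times the highest EZH2 WT library. Without GC correction this was the highest fold change of the 4 genes, 3.67 between means of 56.1 ± 7.65 and 15.3 ± 6.02 (SD, n = 4 and 3), or 1.88 on the log2 scale (SE 0.32, limma adjusted p = 0.00797). It also rested on the fewest reads, 162 in EZH2 LOF and 101 in EZH2 WT libraries, with 11 in EZH2 LOF replicate 13 and 15 in EZH2 WT replicate 1. Without EZH2 LOF replicates 13 and 14, the shallowest, the log2 fold change was 1.83 and its limma adjusted p was 0.0736.

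Pcgf2 (ENSMUSG00000018537), also known as Mel18, is at chr11:97688823-97700497 on the minus strand, 59.1 kb from E130012A19Rik. It encodes a RING-finger protein that pairs with RING1 proteins in PRC1. Pcgf2 had 160.4, 135, 141 and 136 normalized counts in EZH2 LOF replicates 13 to 16, against 45.1, 55.8 and 81.8 in EZH2 WT replicates 1 to 3. The EZH2 LOF libraries lay close together and the EZH2 WT libraries were spread out, yet no libraries overlapped between groups. Means were 143 ± 11.8 and 60.9 ± 18.9 (SD, n = 4 and 3), a log2 fold change of 1.26 (SE 0.22, limma adjusted p = 0.00800). Without EZH2 LOF replicates 13 and 14 together it was 1.22, with a limma adjusted p of 0.0774.

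Kdm6b (ENSMUSG00000018476), at chr11:69398508-69413675 on the minus strand, was the most abundant of the 4. It had 587, 728, 628 and 594 normalized counts in EZH2 LOF replicates 13 to 16, against 154, 172 and 478 in EZH2 WT replicates 1 to 3. The groups did not overlap, but EZH2 WT replicate 3 came to within a factor of 1.23 of the lowest EZH2 LOF library and was 3.11 times the lowest EZH2 WT library. Means were 634 ± 65.1 and 268 ± 182 (SD, n = 4 and 3), a log2 fold change of 1.43 (SE 0.33, limma adjusted p = 0.0200). Its reads were many, 1819 and 1653, and the counting interval of EZH2 WT replicate 3 (447 to 509) did not reach that of replicate 2 (157 to 189). The difference was 1.95 (limma adjusted p = 0.000346) without EZH2 WT replicate 3. The call was lost without EZH2 LOF replicate 14 (1.37, limma adjusted p = 0.0510), without EZH2 WT replicate 1 (1.14, limma adjusted p = 0.0504), without EZH2 WT replicate 2 (1.22, limma adjusted p = 0.0799), and without EZH2 LOF replicates 13 and 14 together (1.39, limma adjusted p = 0.142). An antisense gene, Kdm6bos, covers 4.11% of the exon bases of Kdm6b.

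An exact two-sided permutation test of each gene gave p = 0.0571, the smallest that the 35 splits of 7 libraries into 4 and 3 allow, so that this test could not reach 0.05 for any gene. By size of log2 fold change the genes ranked 147 (E130012A19Rik), 283 (Kdm6b), 374 (Pcgf2) and 394 (Phf1) among the 1102 genes called higher. Per kilobase of exon, the order in EZH2 LOF tumors was Kdm6b (91.2 ± 9.37), Pcgf2 (40.6 ± 3.36), Phf1 (24.6 ± 1.86) and E130012A19Rik (24.2 ± 3.31), of which the last 2 lay within their spread. In EZH2 WT tumors it was Kdm6b (38.5 ± 26.2), Pcgf2 (17.3 ± 5.35), Phf1 (10.4 ± 0.853) and E130012A19Rik (6.60 ± 2.60), where Kdm6b and Pcgf2 lay within the spread of Kdm6b. Across the 7 libraries the members' log2 levels followed each other with Pearson's r of 0.78 (Phf1 and Kdm6b) to 0.95 (Pcgf2 and E130012A19Rik). These values are a description over 2 groups that differ for every member, which by itself gives a high r.

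GC content moved with the fold change over the whole table, and it is high in these members. The longest transcripts of Phf1, Kdm6b and E130012A19Rik, at 58.6%, 59.6% and 66.9% GC, are in the highest of 10 GC deciles of the table, and Pcgf2, at 54.0%, is in decile 8. Among genes of the lowest GC decile 27.7% had a positive log2 fold change, with a median of -0.50, against 82.7% with a median of 0.81 in the highest decile. All 4 members lay above the median of their decile, by 0.42 (Phf1), 0.63 (Kdm6b), 0.64 (Pcgf2) and 1.07 (E130012A19Rik) on the log2 scale. Of all genes, 41.1% in decile 8 and 58.1% in the highest decile were called higher, as the members were. A place above the median therefore follows largely from that call. The GC pattern stood in single libraries too: genes of the top decile deviated from their mean by a median of 0.25 to 0.45 in the EZH2 LOF libraries, against -0.49, -0.62 and -0.17 in EZH2 WT replicates 1, 2 and 3.

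With a correction for GC within each library, an alternative chosen after the data were seen, only Pcgf2 kept its call (log2 fold change 1.02, limma adjusted p = 0.0120). The values were 0.68 (adjusted p = 0.0580) for Phf1, 0.82 (adjusted p = 0.115) for Kdm6b and 0.63 (adjusted p = 0.403) for E130012A19Rik, all still positive, and E130012A19Rik, the highest of the 4 before, was then the lowest. The correction was built on genes selected for change, so that it can take up real differences as well, and the part that GC content played in the members' rise was not tested.

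**Figure D2:**
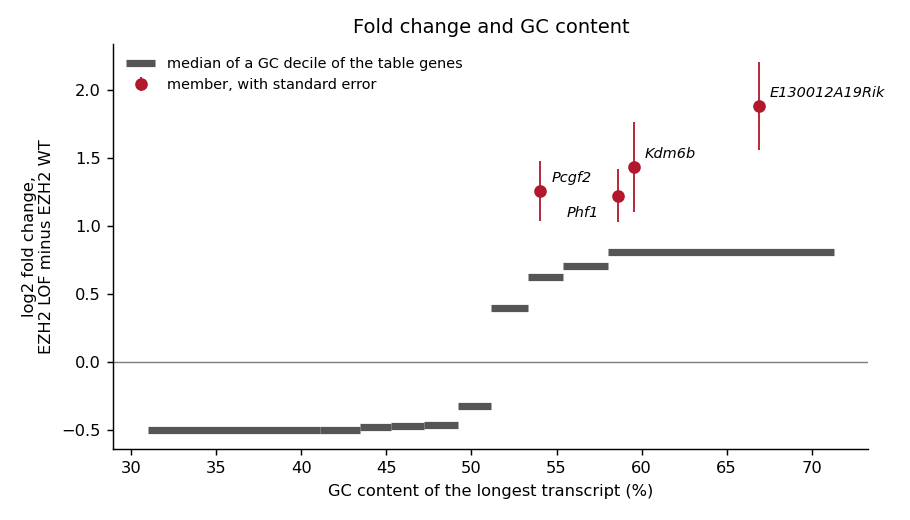
Log2 fold change (EZH2 LOF minus EZH2 WT, vertical axis) against the GC content of the longest transcript (%, horizontal axis). Grey lines are medians over deciles of the 3531 genes with a GC value, from -0.50 to 0.81. Red points are the 4 members with standard errors, all above the line of their own decile, which follows largely from their being called higher.

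**Figure D3:**
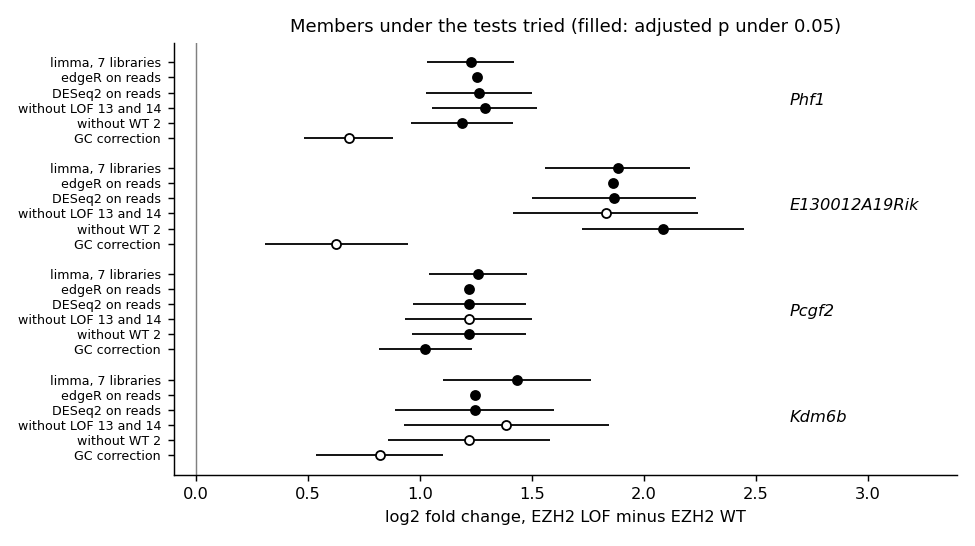
Log2 fold change of each member (horizontal axis, EZH2 LOF minus EZH2 WT, bars are standard errors, with none drawn for edgeR) under 6 tests. Filled points passed an adjusted p of 0.05. All points are positive, and after GC correction only Pcgf2, at 1.02, is filled.

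The other Polycomb genes were read from lists of complex subunits. Of 59 genes on the PRC2, PRC1, H3K27 demethylase and acetyltransferase, and H2A deubiquitinase (PR-DUB) lists, 27 were in the table, 14 rose, 1 fell and 12 did not pass. A place in the table is itself a call of change by the authors, which 26.4% of all genes tested had. Leaving out the members, 23 of 55 were in the table, of which 10 rose, 1 fell and 12 did not pass. Their median log2 fold change was 0.56, against -0.33 over all genes of the table, of which 31.2% rose and 29.7% fell. Their median GC content was 53.8%, which lies in GC decile 8 of the table. In that decile the median log2 fold change was 0.62 and 41.1% of genes were called higher. Without EZH2 LOF replicates 13 and 14, 3 of the 27 passed. After GC correction 11 passed, of which 7 were among the 15 called before and 4 (Jarid2, Bmi1, Pcgf5 and, lower, Bap1) were not, while 8 lost their call.

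None of the 6 genes of the PRC2 core was in the table, and they were not analysed here. Of 9 accessory genes 5 were in the table. Beside Phf1 and E130012A19Rik, Lcor, whose locus also encodes the PRC2 partner PALI1, rose by 0.77 on the log2 scale, with 206 ± 27.8 normalized counts in EZH2 LOF and 120 ± 16.5 in EZH2 WT tumors (limma adjusted p = 0.0173). With a GC content of 42.0% it was 1.11 after GC correction, and its call was lost in 3 of 7 fits that left out 1 library. Phf19, another Polycomb-like gene, had a log2 fold change of 0.90 (limma adjusted p = 0.0969), and Jarid2, a DNA-binding partner of PRC2, had 0.35 (limma adjusted p = 0.105). Jarid2 passed after GC correction (0.49, limma adjusted p = 0.0354) and under DESeq2 with its own size factors.

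Of 30 PRC1 genes 16 were in the table, of which 8 rose, 1 fell and 7 did not pass. Auts2, which with Pcgf3 or Pcgf5 forms a noncanonical PRC1, had the highest change of them, 1.80 (360.0 ± 57.8 normalized counts in EZH2 LOF and 104 ± 26.05 in EZH2 WT tumors, limma adjusted p = 0.00158). Its relatives Fbrs (0.97) and Fbrsl1 (0.81) rose as well, and Scmh1 (0.82), Bcorl1 (0.64) and Phc1 (0.49), a polyhomeotic subunit, were also among those that rose. Scml4 fell by 1.70, with 131 ± 19.6 normalized counts in EZH2 LOF and 438 ± 123 in EZH2 WT tumors (limma adjusted p = 0.00239). Bmi1, the close relative of Pcgf2, had a log2 fold change of 0.47 (limma adjusted p = 0.0514), against 1.26 for Pcgf2, and the difference between the 2 was not tested. Bmi1 passed under edgeR with TMM scaling, under both DESeq2 fits and after GC correction, where it was 0.83 (limma adjusted p = 0.00528) against 1.02 for Pcgf2. Of the others that did not pass, Pcgf5, Cbx2, Cbx6, Cbx8 and Kdm2b had values of 0.38 to 0.99, and Yaf2 had -0.40. After GC correction Fbrs (0.23), Fbrsl1 (0.10), Bcorl1 (0.38) and Phc1 (0.33) no longer passed, while Auts2 (1.54), Scmh1 (0.90) and Scml4 (-1.59) did, and Pcgf5 (0.87, limma adjusted p = 0.0110) and Bmi1 gained a call. When each library was left out in turn, Phc1 lost its call in 6 of 7 fits, Fbrsl1 in 5 of 7 and Bcorl1 in 3 of 7.

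Kdm6b was the only one of 5 H3K27 demethylase and acetyltransferase genes in the table. The 18 other JmjC demethylases gave 2, Hr (0.63, called) and Kdm3b (0.30, not called). The sign of Hr turned to -0.14 after GC correction. Of 9 PR-DUB genes 5 were in the table, and Mbd6 (1.79, limma adjusted p = 0.00628) and Asxl3 (0.80, limma adjusted p = 0.0460) rose. Foxk1 (0.53), Asxl1 (0.43) and the catalytic subunit Bap1 (-0.34) did not pass, but Bap1 did after GC correction (-0.56, limma adjusted p = 0.0113). The call of Asxl3 was lost in 6 of 7 fits that left out 1 library and under both edgeR fits.

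The trithorax and COMPASS list holds histone methyltransferases that oppose Polycomb, their partner subunits, and the demethylases Kdm5a, Kdm5b and Kdm5c. Of its 17 genes 5 were in the table, against 26.4% of all genes tested. These 5 are methyltransferases of H3 lysine 4, and all 5 rose. Their median GC content was 58.4%, and 3 of them are in the highest GC decile, where 58.1% of genes were called higher. Kmt2d had 2418 ± 143 normalized counts in EZH2 LOF and 866 ± 408 in EZH2 WT tumors, a log2 fold change of 1.58 (limma adjusted p = 0.00576). Setd1b (1.58), Setd1a (1.07), Kmt2b (1.02) and Kmt2a (0.91) followed, and of the 5 only Kmt2b (0.45) lost its call after GC correction. Without EZH2 LOF replicates 13 and 14 together none of the 5 passed by limma, with values of 0.92 (Kmt2a) to 1.52 (Kmt2d) and adjusted p of 0.0725 to 0.105. As with Kdm6b, EZH2 WT replicate 3 was the highest EZH2 WT library for 5 of these 5 genes and for 20 of the 27 Polycomb genes, against 1247 of all 3533. Of genes held by Polycomb in many tissues, Cdkn1c, a cell cycle inhibitor, rose by 2.06 (1 of 4 such inhibitors in the table). Hoxa3 (1.98) and Hoxc4 (2.85) rose as the 2 of 39 Hox genes listed. Hoxa3 averaged 32.8 normalized counts in EZH2 LOF and 8.27 in EZH2 WT tumors, and Hoxc4 18.7 and 2.07. With a pseudocount of 5 or 0.5, Hoxc4 was 1.71 or 3.27. The call of Hoxa3 was lost in 3 of 7 fits that left out 1 library, and that of Hoxc4 in 0. Neither passed without EZH2 LOF replicates 13 and 14 together (limma adjusted p = 0.116 and 0.0985), and both passed after GC correction.

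**Figure D4:**
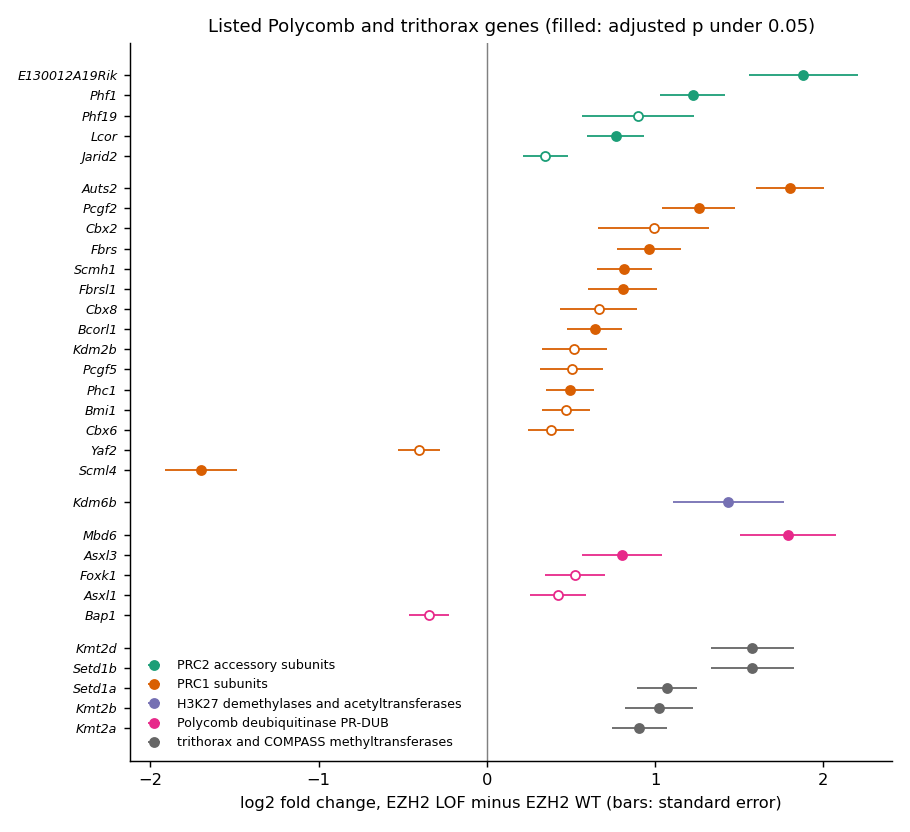
Log2 fold change with standard error (horizontal axis, EZH2 LOF minus EZH2 WT) of the Polycomb and trithorax genes named in the text, grouped by complex (colour). Filled points passed an adjusted p of 0.05. All but Scml4, Yaf2 and Bap1 lie to the right of 0, with Scml4, at -1.70, the only filled point to the left.

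Genes near the members in the genome were read within 500 kb. On chromosome 11, Pcgf2 and E130012A19Rik, 59.1 kb apart, both rose. So did Srcin1 (1.35, limma adjusted p = 0.00590), on the same strand at 52.3 kb from E130012A19Rik. Between Pcgf2 and E130012A19Rik, on the opposite strand, Mllt6 lies 3.36 kb from the former and 33.7 kb from the latter. Mllt6 had 0.30 and Arhgap23 had 0.49, neither past the test. Tbkbp1, at 478 kb from E130012A19Rik, rose by 0.79. Near Phf1 all 4 neighbors in the table rose, among them Kifc5b (2.16), at 0.547 kb, whose call was lost in 5 of 7 fits that left out 1 library. Near Kdm6b 4 of 6 rose and 1, Mpdu1 (-0.60), fell, a call lost in 6 of 7 fits that left out 1 library. Of those that rose, Shbg lost its call in 7 of these fits, Ctc1 in 6, Plscr3 in 5 and Cntrob in 0. Of these neighbors Mllt6, Arhgap23 and Tbkbp1 changed sign after GC correction.

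The genes closest to each member in log2 level over the 7 libraries were Runx2, Aim1 and Lhx2 for Phf1 (Pearson's r 0.99 each) and Cabin1, Rnf165 and Srrm1 for Pcgf2 (0.99 each). They were Otud4, Rbm25 and Gtf2ird1 for E130012A19Rik (0.99 each) and Creb5, Tet3 and Ago2 for Kdm6b (0.99 each). Tet3 is an enzyme that oxidizes 5-methylcytosine. These are descriptions over 7 libraries.

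Of 78 cell type markers 18 were in the table, of which 9 fell, 2 rose and 7 did not pass, where 29.7% of all genes of the table fell. Of 15 microglia and macrophage markers 3 were in the table, with summed levels of 313 to 396 normalized counts in EZH2 LOF and 581 to 1343 in EZH2 WT libraries, and 2 fell. Of 12 mature oligodendrocyte markers 5 were listed, of which 3 fell and Myrf rose, with sums of 1972 to 2316 in EZH2 LOF and 2668 to 3594 in EZH2 WT libraries. Of 10 endothelial and mural markers 2 were listed and both fell, with sums of 68.7 to 207.7 in EZH2 LOF and 272 to 579 in EZH2 WT libraries. The 4 of 9 oligodendrocyte precursor markers listed, Pdgfra, Olig2, Ptprz1 and Nkx2-2, were present in both groups, summing to 19383 to 23291 in EZH2 LOF and 28905 to 48047 in EZH2 WT libraries, and Olig2 fell while Nkx2-2 rose. Of 8 astrocyte markers 2 were listed and 1 fell, with sums of 3314 to 4501 in EZH2 LOF and 5073 to 8866 in EZH2 WT libraries. Of 13 neuron markers 2 were listed and neither passed, at 513 to 943 in EZH2 LOF and 996 to 1479 in EZH2 WT libraries, and of 11 lymphocyte markers 0 were listed. The listed astrocyte, microglia and mature oligodendrocyte markers had median GC contents of 45.5%, 47.9% and 48.9%. These lie in deciles 4 and 5, where median log2 fold changes were -0.47 and -0.46. Endothelial and mural, precursor and neuron markers had 51.0%, 51.9% and 52.6%, in deciles 6 and 7 (-0.32 and 0.40). Myrf and Nkx2-2, which rose, were in decile 9. Markers outside the table were not analysed here. The part of cell makeup in the members' values, and of GC content in the markers' values, was not tested.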

How the data were processed

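RNA-seq libraries (stranded total RNA, rRNA-depleted, single-end reads of 50 bases) were trimmed, aligned to mm10 with STAR and counted with HTSeq by the authors. For the tool versions and the strand setting the sources used here give nothing. The deposited values are normalized counts, a signal made by the authors by dividing gene counts by DESeq2 size factors, and the deposited table lists only genes with their adjusted p under 0.05. Its log2 fold changes, their standard errors, Wald statistics (a score), and raw and adjusted p-values are the authors' own comparisons. They were not used, except that the p-values gave the number of genes tested, 13391, and neither printed nor compared. Of 3553 lines, 3533 distinct genes remained (19 identifiers stood on several identical lines).

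Normalized counts were whole multiples of 1 read in 100% of values of the 7 libraries (tolerance 0.001), giving reads and exact 95% Poisson intervals, which cover counting error only. Size factors were 0.218 to 1.36 in EZH2 LOF and 1.80 to 2.64 in EZH2 WT libraries. Values of log2(normalized count + 1) were tested in limma 3.58.1 (trend) in R 4.3.3, EZH2 LOF minus EZH2 WT, with Benjamini-Hochberg adjustment over 13391 genes, where those outside the table were counted as not passing. A fold change on this scale understates low genes. The sources do not say more of the animals, so that p-values set the group difference against the spread of these samples only. Members, lists and rules for named genes (all listed genes in the table, neighbors within 500 kb, and the 3 genes most like each member) were chosen with earlier results of these data known. Alternatives were a pseudocount of 0.5 or 5, a mean of at least 10, adjustment over the table only, edgeR 4.0.16 and DESeq2 1.42.0 on the recovered reads, leaving out libraries and, added after the data were seen, a GC correction. Scripts were tested on simulated data. GENCODE M21 gave coordinates (3531 genes with a GC value) and RefSeq the promoters, found for 2 of 4 members. Values of some listed genes that enter the counts are not reported here.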

Additional observations from a re-analysis of the deposited data

Results flagged for a closer look

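In 4 of 51 genes checked, 1 EZH2 LOF library lay far from the other 3 by Dixon's criterion, which flags about 1 group in 20 by chance. Foxk1 was at 410.5 normalized counts in replicate 15. Hr was at 843 in replicate 13. Kmt2b was at 786 and Pcgf5 at 176 in replicate 14. None of the 4 members was among them.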

How the results depend on the processing

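The log2 fold changes of the 4 members stayed positive under all 17 alternatives. Under both pseudocounts, the filter, the adjustment over the table, edgeR and DESeq2 all 4 remained called. The table was selected by the authors' DESeq2 on these same libraries, so that calls kept under DESeq2 or edgeR are no independent support. Adjusting over fewer genes can only lower an adjusted p, and the filter left the members' values unchanged. Without replicates 13 and 14 of EZH2 LOF, 1 member passed (Phf1), with 1.22 for Pcgf2, 1.83 for E130012A19Rik and 1.39 for Kdm6b failing, and 3 listed Polycomb genes, 182 higher and 89 lower genes were called. With the GC correction 1 member passed (Pcgf2), with 0.68 for Phf1, 0.63 for E130012A19Rik and 0.82 for Kdm6b failing, and 587 genes were called lower, against 1048. The same correction turned Arhgap23 to -0.26, Hr to -0.14, Mllt6 to -0.20 and Tbkbp1 to -0.00078; the cause was not tested. Adjusting over the table alone called 1694 genes higher, 1790 lower and 27 Polycomb genes, since fewer genes were tested. Leaving out 1 library gave log2 fold changes of 1.17 to 1.29 (Phf1), 1.52 to 2.08 (E130012A19Rik), 1.07 to 1.49 (Pcgf2) and 1.14 to 1.95 (Kdm6b). It gave 458 to 1048 genes called higher, 357 to 876 lower and 8 to 16 of the Polycomb genes, against 1102, 1048 and 15 with all libraries, the lowest counts without replicate 2 of EZH2 WT. For the other genes tested alike, 640 results kept their direction and their side of the threshold (genes not called at the outset included), 40 moved past it, 115 fell short of it and the 4 above turned in sign. Scaling by TMM or by DESeq2 moved all fold changes by 0.017 and 0.041. No paired analysis was possible because N_CRE and NEL_CRE share no replicate numbers. Depth limits E130012A19Rik and Phf1 most, with 11 and 18 reads in replicate 13 of EZH2 LOF.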
